A study of Homo sapiens with 2 samples.

Results

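The ESCRT-III membrane repair genes examined here are the ESCRT-III subunits CHMP1A, CHMP1B, CHMP2A, CHMP2B, CHMP4A, CHMP4B, CHMP4C, CHMP5 and CHMP6, and VPS4B, the ATPase that remodels and takes apart the filaments they form. They were chosen by symbol, and all 10 were found among the 60616 genes of the deposited tables. Their transcripts were read in HSC-3 cells, an established human line of head and neck squamous cell carcinoma that carries no engineered change by the labels. The series holds 1 library of cells given 0.1% DMSO, the vehicle, and 1 library of cells given 1 µM FIN56 for 48 h, and the labels state the time for FIN56 only. FIN56 is a chemical inducer of ferroptosis, in which oxidised membrane lipids kill the cell, and the study describes the concentration used as sublethal. Neither condition has a replicate, so none of the differences below could be tested, and an effect of FIN56 cannot be told apart from any other difference between these cultures.

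The endosomal sorting complexes required for transport (ESCRT) are protein machines that bend and cut membranes from the inside of a narrow neck. ESCRT-0, ESCRT-I and ESCRT-II bind ubiquitinated cargo and pass the membrane on to ESCRT-III, whose subunits are soluble until they assemble into spiral filaments at the neck. Calcium entering through a wounded plasma membrane brings the same filaments to the wound, where they shed the damaged patch, and in cells under ferroptotic stress this repair is known to delay rupture.

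Read depth was ample for these genes. Expected counts are RSEM estimates of the reads of a gene, in which a read that matches several genes is divided between them. Their total was 70184517 for DMSO and 73062209 for FIN56, and those of single genes of the set ranged from 1027 (CHMP6, DMSO) to 10785 (CHMP4B, FIN56). The label of the line was checked against markers, as FPKM, a level scaled by library size and by the effective length of the gene. All 8 squamous epithelial markers were present in both libraries, from 43.8 FPKM for CDH1 to 2078 for KRT5. PTPRC, CD3E, KDR and COL1A2, which mark leukocytes, endothelium and fibroblasts, were listed at 0 in both. The summed FPKM of the leukocyte list was 3.90 with DMSO and 5.28 with FIN56, nearly all of it CD14, that of the fibroblast list was 5.10 and 2.92, mostly COL1A1, and that of the endothelial list was 0.080 in both. In bulk RNA, fewer cells of a type and less RNA per cell cannot be told apart.

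Levels of the 10 genes were compared with each other as TPM (transcript level divided by length and scaled to the same sum in each library). CHMP4B, the main filament-forming subunit, was the highest in both libraries, at 127.8 TPM with DMSO and 150.1 TPM with FIN56. CHMP2A, which joins the growing filament and draws in VPS4, followed with 106.7 and 120.5 TPM. CHMP6, the subunit that links ESCRT-II to the first CHMP4 molecules, was the lowest with 16.3 and 16.0 TPM. The filament former thus stood at 7.87 times the TPM of its nucleator with DMSO (counting bounds 7.25 to 8.55) and at 9.38 times with FIN56 (8.68 to 10.1). TPM divides by effective length, and that of CHMP6 was 1348 bases with DMSO and 1477 with FIN56. By counts the FIN56 over DMSO ratios of the 2 genes lay closer, at 1.15 for CHMP4B and 1.06 for CHMP6. The levels carry exact Poisson intervals at 95%, which cover counting error only, since there is 1 library per condition. These intervals may be too narrow even for that. Reads that carry no molecular identifier may be copies of the same molecule, and some counts are divided between genes.

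In the DMSO library the order ran from CHMP4B and CHMP2A through CHMP4A (77.5 TPM), CHMP5 (75.2), CHMP1A (60.8), CHMP2B (43.3), CHMP4C (28.0), CHMP1B (25.8) and VPS4B (22.5) to CHMP6. Only CHMP4A and CHMP5 could not be ordered, since their intervals of 74.7 to 80.3 and 73.3 to 77.1 TPM overlapped. In the FIN56 library CHMP4A stood at rank 5 instead of rank 3, with 60.8 TPM, below CHMP5 with 91.5 and CHMP1A with 74.6. VPS4B (27.8 TPM) and CHMP1B (25.7) had changed places at the lower end. There CHMP2B had 51.3 TPM and CHMP4C 33.4, and no neighbouring intervals overlapped.

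**Figure D1:**
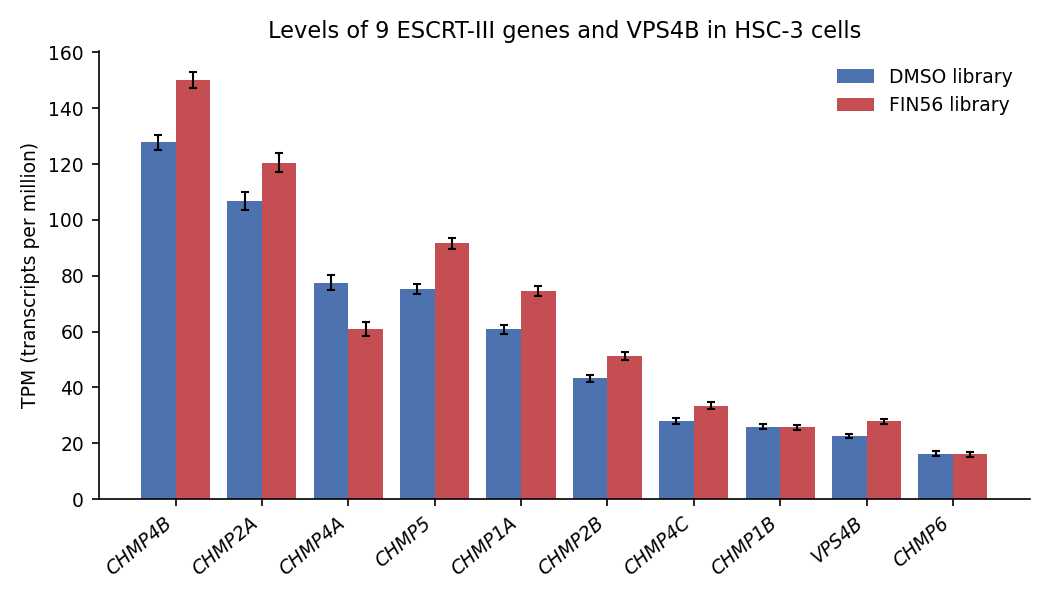
Levels of the 10 genes in TPM in the DMSO library (blue) and the FIN56 library (red), in the order of the DMSO library. Bars are single libraries and error bars are 95% Poisson intervals, which cover counting error only. CHMP4A is the only gene whose FIN56 bar lies clearly below its DMSO bar, at 60.8 against 77.5 TPM.

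To ask whether transcripts of the repair machinery differed under FIN56, the FPKM of each gene in the FIN56 library was divided by that in the DMSO library. By the criterion of the study, an FPKM fold change of 1.5, 0 of the 10 genes were higher and 0 were lower by that fold. Across the 24454 genes detected in both libraries (FPKM above 0), 14.7% had a ratio of 1.5 or more and 17.3% a ratio of 1/1.5 or less. Many of those rest on few reads. Among the 12638 genes with at least 1 FPKM in both libraries, a filter that all 10 genes passed, these shares were 3.87% and 6.77%. The ratios of the 10 genes ranged from 0.767 for CHMP4A to 1.21 for VPS4B, with 7 above 1 and 3 below. Of those below, CHMP1B (0.973) and CHMP6 (0.964) lay near 1, and CHMP6 was at 1.06 by counts. The share of all genes with a ratio above 1 was not computed. The median log2 ratio of the 10 genes was 0.21 (a ratio of 1.16), against 0 over the 24454 genes and 0.028 over the 12638.

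Smaller differences were read against counting error. For each gene an exact Clopper-Pearson interval at 95% was computed for the ratio of rounded expected counts, scaled by the library totals. It compares 2 libraries and not 2 conditions. This interval lay above 1 for 7 of the 10 genes, below 1 for CHMP4A and included 1 for CHMP1B and CHMP6. At this depth that is common. The interval lay above 1 for 38.0% and below 1 for 35.9% of the 12638 genes. Summed over the 10 genes, the level was 583.9 TPM with DMSO and 651.8 TPM with FIN56, a ratio of 1.12.

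**Figure D2:**
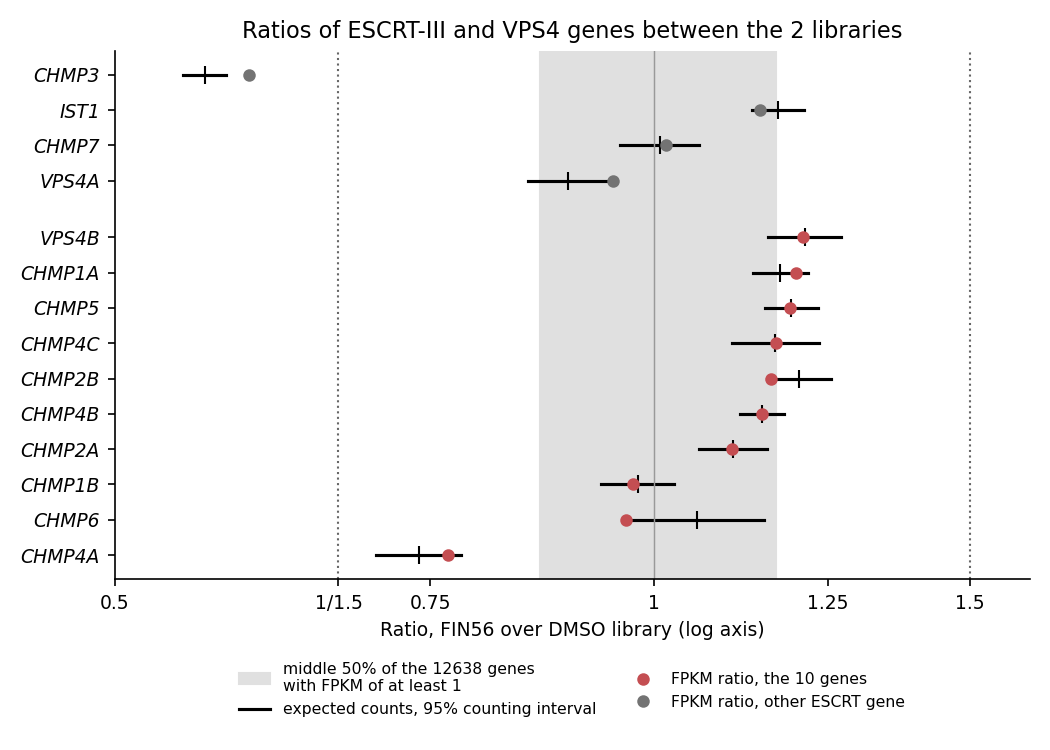
Ratio of FIN56 over DMSO on a log axis for the 10 genes (red points, FPKM), and for CHMP3, IST1, CHMP7 and VPS4A (grey points). Black lines are 95% counting intervals of the expected count ratio with a tick at its value, the grey band holds the middle 50% of 12638 genes (0.864 to 1.17), and dotted lines mark 1.5 and 1/1.5. All 10 genes lie between the dotted lines, whereas CHMP3 lies to the left of 1/1.5.

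CHMP4 subunits form the backbone of the filament, and the 3 paralogs did not move alike. CHMP4B (ENSG00000101421, chromosome 20, 33811348 to 33854366, GRCh38) had 85.5 FPKM with DMSO and 98.2 with FIN56. It was higher with FIN56 at a ratio of 1.15, and its 9017 and 10785 expected counts gave a count ratio of 1.15 with an interval of 1.12 to 1.18. CHMP4C (ENSG00000164695), which is known to hold back the last cut of cell division, had 18.7 and 21.9 FPKM from 2303 and 2801 counts. Its FPKM ratio of 1.17 and its count interval of 1.11 to 1.24 placed it beside CHMP4B. CHMP4A (ENSG00000254505, chromosome 14, 24209615 to 24213830, minus strand) went the other way, with 51.8 FPKM under DMSO and 39.8 under FIN56. Its counts were 2969 and 2284, a ratio of 0.739 with an interval of 0.699 to 0.781, and of the 12638 genes 13.95% had an FPKM ratio as low as its 0.767 or lower.

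Within the family the balance therefore differed between the libraries. CHMP4A made up 33.2% of the summed CHMP4 TPM with DMSO, with counting bounds of 31.9% to 34.6%, and 24.9% with FIN56, with bounds of 23.7% to 26.1%. The share of CHMP4B was 54.8% with DMSO and 61.4% with FIN56, and that of CHMP4C was 12.0% and 13.7%. Total CHMP4 was 233.3 TPM and 244.3 TPM, so the lower CHMP4A was accompanied by more CHMP4B in the sum. CHMP4B stood at 1.65 times the TPM of CHMP4A with DMSO (counting bounds 1.56 to 1.75) and at 2.47 times with FIN56 (2.32 to 2.62).

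**Figure D3:**
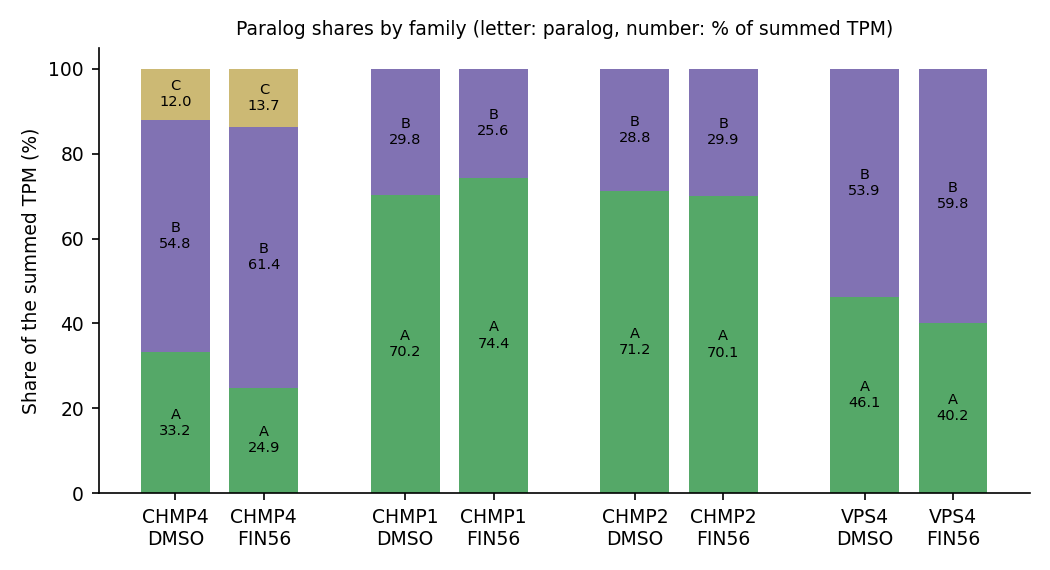
Share of each paralog in the summed TPM of its family, in percent, in the DMSO and the FIN56 library (1 library per bar). Letters name the paralog, as in CHMP4A, and VPS4A is shown for comparison. The share of CHMP4A is 33.2% with DMSO and 24.9% with FIN56, while that of CHMP2A is 71.2% and 70.1%.

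CHMP2A and CHMP2B act later in the filament, where they help close it and bring in VPS4. CHMP2A (ENSG00000130724, chromosome 19, 58551452 to 58555105, minus strand) had 71.4 FPKM with DMSO and 78.8 with FIN56. Its 3899 and 4491 counts gave a ratio of 1.11 with an interval of 1.06 to 1.16, the smallest of the 7 genes with an interval above 1. CHMP2B (ENSG00000083937, chromosome 3, 87227271 to 87255556) had 28.9 and 33.6 FPKM. Its 4090 and 5130 counts gave 1.20 with an interval of 1.16 to 1.26, and its FPKM ratio was 1.16. CHMP2A held 71.2% of the summed CHMP2 TPM with DMSO (69.9% to 72.4%) and 70.1% with FIN56 (68.9% to 71.3%), with bounds that overlap. By counts not divided by length its share was 48.8% and 46.7%, and the count intervals of the 2 genes meet at 1.16 without overlapping.

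CHMP1A and CHMP1B are late subunits that recruit VPS4 and, for CHMP1B, the microtubule-severing enzyme spastin. CHMP1A (ENSG00000131165, chromosome 16, 89640816 to 89657738, minus strand) had 40.7 FPKM under DMSO and 48.8 under FIN56. Its FPKM ratio was 1.20, and its 5575 and 6826 counts gave 1.18 with an interval of 1.14 to 1.22, below the count ratios of VPS4B, CHMP2B and CHMP5, whose intervals overlap with it. CHMP1B (ENSG00000255112, chromosome 18, 11851413 to 11854444), a gene of a single exon, had 17.3 and 16.8 FPKM. From 3505 and 3573 counts its ratio was 0.979 with an interval of 0.934 to 1.03, so no difference was detectable at this depth. CHMP1A accounted for 70.2% of the summed CHMP1 TPM with DMSO (68.9% to 71.4%) and 74.4% with FIN56 (73.3% to 75.4%).

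CHMP5 is a side subunit that binds VTA1, the cofactor of VPS4, and CHMP6 carries a lipid anchor and starts the filament. CHMP5 (ENSG00000086065, chromosome 9, 33264879 to 33282070) had 50.3 FPKM with DMSO and 59.9 with FIN56, a ratio of 1.19. Its 5930 and 7362 counts gave an interval of 1.15 to 1.23. CHMP6 (ENSG00000176108, chromosome 17, 80991598 to 81009517) had 10.9 and 10.5 FPKM, yet 1027 counts with DMSO and 1130 with FIN56. Its direction depended on the measure, with an FPKM ratio of 0.964 and a count ratio of 1.06 whose interval of 0.970 to 1.15 included 1. FPKM is divided by an effective length that RSEM derives in each library from the transcripts it assigns reads to. That length, computed here from counts and FPKM, was 1348 bases with DMSO and 1477 bases with FIN56 for CHMP6, a ratio of 1.10. Over the 12638 genes the length ratio ran from 0.867 at the 5th to 1.09 at the 95th percentile, and for the other 9 genes it lay between 0.963 (CHMP4A) and 1.04 (CHMP2B).

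VPS4B (ENSG00000119541, chromosome 18, 63389190 to 63422483, minus strand) had the highest ratio of the set. It had 15.0 FPKM under DMSO and 18.2 under FIN56, a ratio of 1.21, which 20.0% of the 12638 genes reached or exceeded. Its 3231 and 4080 counts gave a ratio of 1.21 with an interval of 1.16 to 1.27. VPS4A, its close paralog that forms mixed rings with it, had 12.9 and 12.2 FPKM, and its 3034 and 2829 counts gave 0.895 with an interval of 0.850 to 0.943. The VPS4B share of the summed VPS4 TPM was 53.9% with DMSO (52.1% to 55.6%) and 59.8% with FIN56 (58.2% to 61.5%).

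Promoter sequences were read because the 7 higher genes lay close together, at FPKM ratios of 1.10 to 1.21. These genes were set apart by their values, and such ratios were common. Of the 12638 genes with at least 1 FPKM in both libraries, 35.3% had a ratio as high as that of CHMP2A (1.10) or higher. For VPS4B (1.21) this share was 20.0%. Whether the 7 genes share regulation was not tested. The 3 stretches next to annotated starts, free of protein-coding exons, are given 5′ to 3′ on the strand of the first-named gene, from hg38 (GRCh38). The first is the gap between CHMP5 and BAG1, which are read away from each other, with starts 159 bases apart. BAG1, a cochaperone of HSP70, was chosen after its values were seen. It had 46.5 FPKM with DMSO and 37.2 with FIN56 (3570 and 2981 counts, count ratio 0.802, interval 0.764 to 0.842), opposite in direction to CHMP5. SPATA33, whose start lies 2 bases from that of CHMP1A on the opposite strand, had a count ratio of 1.01 (interval 0.893 to 1.13). The other stretches precede CHMP4B, the most abundant member, and VPS4B, the one with the highest ratio. The CHMP4B stretch also holds the start of ZNF341-AS1, a long non-coding RNA gene on the opposite strand (6.18 and 5.27 counts). Capitals mark GGGCGG (a GC box, bound by SP1), CCGGAA (the core bound by ETS factors) or CCAAT, on either strand, and no marked match overlaps another.
CHMP5 to BAG1 gap (chr9:33264721-33264878): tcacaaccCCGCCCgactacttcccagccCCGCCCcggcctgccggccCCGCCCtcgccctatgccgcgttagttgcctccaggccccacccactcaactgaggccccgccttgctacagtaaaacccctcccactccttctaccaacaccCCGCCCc
CHMP4B (chr20:33811098-33811347): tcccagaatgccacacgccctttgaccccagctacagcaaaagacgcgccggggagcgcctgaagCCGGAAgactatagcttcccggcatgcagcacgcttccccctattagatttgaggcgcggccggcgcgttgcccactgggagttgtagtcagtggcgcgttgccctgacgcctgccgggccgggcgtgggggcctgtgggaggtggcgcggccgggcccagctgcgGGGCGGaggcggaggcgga
VPS4B (chr18:63422484-63422733): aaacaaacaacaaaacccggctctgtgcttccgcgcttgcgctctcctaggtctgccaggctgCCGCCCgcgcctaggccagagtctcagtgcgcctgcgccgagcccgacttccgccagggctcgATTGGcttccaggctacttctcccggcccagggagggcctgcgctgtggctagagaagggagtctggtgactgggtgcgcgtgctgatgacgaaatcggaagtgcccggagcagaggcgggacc

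The gap between CHMP5 and BAG1 holds 4 GC boxes in 158 bases. The CHMP4B stretch holds 1 GC box and 1 CCGGAA, and the VPS4B stretch 1 GC box and 1 CCAAT. For a wider view, RefSeq promoter windows (GRCh38.p14, 250 bases before to 50 after a start) were searched on both strands. Of the 10 genes, 8 had a window in that table, and CHMP4C and CHMP6 had none. GGGCGG was in 6 of the 8 windows and in 45.0% of all 35116 windows, CCGGAA in 5 and in 17.2%, and CCAAT in 2 and in 34.6%. TATAAA, the TATA box, was in 0 of the 8 and in 11.5% of all, CACGTG, the E-box, in 1 and in 7.26%, and TGACNNNGC, the core of the antioxidant response element, in 2 (CHMP2B and CHMP5) and in 13.3%. The window of CHMP4A, the lower gene, held each of these motifs but TATAAA and TGACNNNGC. The share of G and C bases ran from 58.7% to 71.7% in the 8 windows, against a median of 58.7% over all windows. The motif shares were not adjusted for this difference in base composition. These matches are letters in a window, and binding was not measured. The 8 windows include those of CHMP1B and CHMP4A, so their motif counts do not describe the higher genes alone.

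Several of these genes share ground or sequence with others, which bears on how reads were assigned. Counts were whole, within 1e-06, in both libraries for CHMP1A, CHMP2A, CHMP2B, CHMP4B and VPS4B, and in the DMSO library for CHMP5. They were not whole for CHMP5 with FIN56, at 7361.99, or for CHMP1B, CHMP4A, CHMP4C and CHMP6, so some reads of these genes were divided with other rows. CHMP1B overlaps the antisense CHMP1B-AS1 over 1338 bases (484 and 607 counts) and lies within GNAL (76.3 and 144 counts). CHMP4A is overlapped over 4185 bases by a long non-coding RNA gene on its own strand, AL096870.2. That gene had 108 counts with DMSO and 156 with FIN56, few beside those of CHMP4A. AL136295.1, which overlaps CHMP4A on the same strand over 3859 bases, was listed at 0 in both libraries. A lncRNA on the opposite strand of CHMP6, AC127496.6, had 46.6 and 14.8 counts. CHMP4C overlaps ZFAND1 on the opposite strand over 456 bases. ZFAND1 had 3451 counts with DMSO and 2838 with FIN56, a ratio of 0.790 with an interval of 0.751 to 0.830. The kit keeps strand, and whether the counting used it is not given in the sources used here, so reads of CHMP1B, CHMP4C and CHMP6 may include some from the opposite strand. For CHMP4A, and for CHMP1B with GNAL, the overlap is on the same strand, where strand cannot separate the reads. The same holds for CHMP6 with AC127496.7 (1798 bases, 11 and 10 counts) and for VPS4B with AC036176.2 (1153 bases, 0 and 2 counts). VPS4A, on which the VPS4 shares rest, is overlapped on its own strand by AC026464.4 over 11351 bases (939 and 1097 counts) and on the opposite strand by COG8 over 6800 bases (1460 and 1586 counts), and its counts were not whole.

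Pseudogenes took hardly any reads. CHMP4BP1 had 5 and 9 counts, CHMP5P1 3 and 4.01, and CHMP1AP1, CHMP1B2P and CHMP4AP1 were listed at 0 in both libraries. The coding sequences of CHMP4A and CHMP4B were 68.6% identical over 649 aligned bases, with no identical run beyond 12 bases, and those of VPS4A and VPS4B 72.7% with none beyond 17.

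The other genes of the pathway were taken from lists of 33 genes, of which 32 were detected in both libraries. None of the 32 had a ratio of 1.5 or more, and 2 had a ratio of 1/1.5 or less, against 14.7% and 17.3% of all 24454 genes. With at least 1 FPKM in both libraries, these were 0 and 1 of 31 genes, beside 3.87% and 6.77% of the 12638 genes. The latter is the closer background, since nearly all of the 32 pass that minimum. Their median log2 ratio was 0.11 by FPKM, but 0.045 by counts scaled by library totals, 0.043 with TMM scaling and 0.019 by rlog, the regularized log2 counts. Of the 31 with at least 1 FPKM in both, the count interval lay above 1 for 16, below 1 for 12 and included 1 for 3, beside 38.0% above and 35.9% below over the 12638 genes. The 2 lower genes were CHMP3 and VPS37D, the latter from 14 and 8 counts with an interval of 0.200 to 1.40.

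CHMP3, an ESCRT-III subunit that pairs with CHMP2A to bind and cap the CHMP4 filament, had 89.2 FPKM with DMSO and 53.0 with FIN56, a ratio of 0.594. Its 13319 and 7782 counts gave a count ratio of 0.561 with an interval of 0.546 to 0.577. On the TPM scale CHMP3 lay above all 10 genes in the DMSO library with 133.4, and below CHMP4B, CHMP2A and CHMP5 in the FIN56 library with 81.0. CHMP2A, its partner, stood at 0.800 times the TPM of CHMP3 with DMSO (counting bounds 0.762 to 0.839) and at 1.49 times with FIN56 (1.41 to 1.57). The readthrough row RNF103-CHMP3, which shares its exons, had 10.9 and 14.5 counts. The remaining ESCRT-III genes differed less, with FPKM ratios of 1.15 for IST1 and 1.02 for CHMP7, whose interval of 0.958 to 1.06 included 1.

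The early complexes were mixed. In ESCRT-0, which gathers ubiquitinated cargo, STAM was the highest at 1.40 (18.2 and 25.4 FPKM) and its partner HGS the lowest at 0.760 (59.9 and 45.5 FPKM) by FPKM. By counts STAM2, at 0.791 (interval 0.743 to 0.842), lay below HGS at 0.809 (0.782 to 0.838), with intervals that overlap. In ESCRT-I, 5 of the 7 genes with at least 1 FPKM had an interval above 1 (38.0% of the 12638 genes had), led by VPS37B at 1.30, and VPS28 and MVB12A, named after their values were seen, had one below 1, at FPKM ratios of 0.808 and 0.712. MVB12B had 3 and 0 counts. In ESCRT-II, VPS25 was the highest at 1.14 and VPS36 the lowest at 0.870. Among the recruiters of ESCRT-III, PDCD6IP, which encodes the CHMP4-binding protein ALIX, had 83.8 FPKM with DMSO and 115.8 with FIN56, a ratio of 1.38 and a count ratio of 1.20 (interval 1.17 to 1.23). PDCD6, the calcium sensor ALG-2 that carries ALIX to a wound, was at 0.922, and CC2D1A, which binds CHMP4, was the lowest of this list at 0.840. Of the deubiquitinases, STAMBP was at 0.897 and STAMBPL1 at 1.18.

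**Figure D4:**
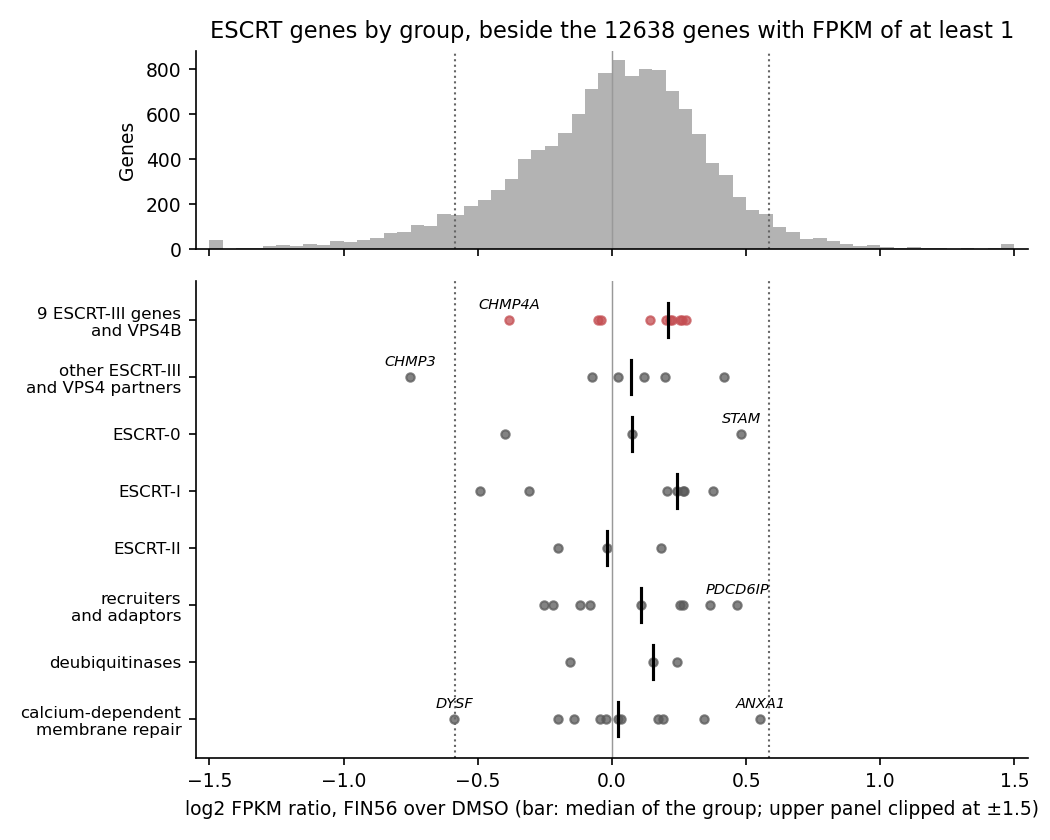
Log2 FPKM ratio of FIN56 over DMSO for each gene with at least 1 FPKM in both libraries, by group (points, with the group median as a black bar), below a histogram of the 12638 such genes whose ends collect values beyond ±1.5. Dotted lines mark fold changes of 1.5. Of the 10 genes 9 lie within 0.28 of 0 on this scale, CHMP4A lies at -0.38, and CHMP3 alone among the other ESCRT genes shown lies past the left line. DYSF of the calcium-dependent repair list lies just past it.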

How the data were processed

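RNA-seq was available for 2 libraries of HSC-3 cells, 1 given DMSO and 1 given FIN56, prepared with a stranded mRNA kit. The submitters' processing notes name FastQC 0.11.7, STAR 2.6.1a, RSEM 1.3.1, DESeq2 1.26.0 and the GRCh38 genome. The authors deposited expected counts, which are unnormalized RSEM estimates per gene. They also deposited FPKM, in which the authors' counts are scaled by library size and effective length. TPM, likewise deposited, has the same sum in each library. In a further deposited table, rlog holds regularized log2 counts from DESeq2.

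Here, FPKM ratios of FIN56 over DMSO were compared in whole hundredths with folds of 1.5 and 1/1.5. Counts were rounded for intervals. Positions and coding sequences came from GENCODE release 44, in which 99.7% of the deposited identifiers were found. Bounds on shares and on ratios of levels set each gene at opposite ends of its Poisson interval. Alternatives were TPM, rlog, counts scaled by library totals, edgeR 4.0.16 TMM or DESeq2 1.42.0 size factors, pseudocounts of 0.1 and 1 FPKM, minima of 1 FPKM or 10 counts, and a fold of 2. Pathway lists were written from general knowledge. From each pathway list the text names genes past 1.5-fold whose count interval excludes 1, and otherwise those with the highest and lowest ratio, with any others named for their known link to the 10 genes. The 10 genes and all lists were chosen with earlier results of these data known. The steps were tested on simulated data. Python 3.11.15 and R 4.3.3 were used.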

Additional observations from a re-analysis of the deposited data

How the results depend on the processing

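No paired analysis was possible because there is a single library of either kind, and none could be left out. None of the 10 genes passed a fold of 1.5 or 2 under any alternative run. Count intervals scaled by TMM or size factors, added after the data were seen, still lay above 1 for 7 genes and below 1 for 1. The shares over the 12638 genes, 38.0% above and 35.9% below, were computed with library totals only. Against library totals, size factors multiply the ratio of every gene by 1.03, so those shares would move too. The median log2 ratio of the 10 genes was 0.21, was 0.10 with rlog values, which by construction draw libraries together, and was between 0.20 and 0.25 under the rest. Without CHMP4A, a choice also made after seeing the data, it was 0.22.

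CHMP1B changed sign to 0.0027 with rlog and 0.0060 with DESeq2 size factors, and CHMP6 to 0.042 with rlog, 0.080 with library totals, 0.078 with TMM and 0.12 with size factors (log2). No other gene of the 10 changed sign. The log2 ratio of their summed level was 0.13 by FPKM, 0.16 by TPM, library totals and TMM, 0.20 by size factors and 0.084 by rlog. As shares of counts not divided by length, CHMP4B held 63.1% and 68.0% of CHMP4, CHMP1A 61.4% and 65.6% of CHMP1, and CHMP2A 48.8% and 46.7% of CHMP2, in the DMSO and FIN56 libraries.

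Of the other ESCRT genes, 2 lay at 1/1.5 or less, 1 with either minimum or pseudocount, since VPS37D has few reads, and 0 with rlog. Their median of 0.11 was 0.045 with library totals, 0.043 with TMM and 0.019 with rlog.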

Other observations

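Genes of calcium-dependent membrane repair outside the ESCRT pathway were read from a further list of 12. ANXA1, an annexin that binds membrane phospholipids when calcium enters, had the highest ratio, with 738 FPKM under DMSO and 1083 under FIN56. Its FPKM ratio was 1.47, just under the fold of 1.5, and its count interval was 1.46 to 1.49. DYSF, which encodes dysferlin, a membrane protein of vesicle fusion at wounds, was the lowest with 3.77 and 2.51 FPKM, a ratio of 0.666, and a count interval of 0.615 to 0.715. SYT7 reached 0.667 from 46 and 40 counts, with an interval of 0.533 to 1.30. The list as a whole was even, with 6 genes above 1 and 6 below and a median log2 ratio of 0.00050.

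The FPKM and count ratios parted most for 4 other ESCRT genes, chosen after their values were seen, whose effective length differed between the libraries. STAM2 had an FPKM ratio of 1.05 and a count ratio of 0.791 (interval 0.743 to 0.842), at effective lengths of 3404 bases with DMSO and 2558 with FIN56. MITD1 had 1.34 by FPKM and 1.08 by counts (945 and 765 bases), VPS36 0.870 and 0.721 (2943 and 2439 bases), and PDCD6IP 1.38 and 1.20 (1736 and 1512 bases). Which transcripts lie behind these lengths was not tested.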
